A study of Mus musculus with 8 samples.

Results

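Ion channels set the membrane potential, the volume and the calcium entry of microglia, and 8 genes that encode such channels are described here: Kcnk13, Kcnk6, Kcnj2, Kcna3, Kcnn4, Hvcn1, Trpv2 and Trpm2. The members were the rows of the deposited table whose gene name was one of these 8 symbols. They comprised 8 of 18707 gene names and 100 of 129304 regions of 800 bp, each an accessible site at which the acetylation of histone H3 on lysine 27 (H3K27ac) was read out by ChIP-seq, that is, sequencing of chromatin pulled down with an antibody. This mark is found at promoters and enhancers in use. The table assigns a region to the gene with the nearest start site, which need not be the gene the region acts on. Nuclei came from brains of 2 genotypes, wild type (WT) and Grn knockout (GrnKO), all C57BL/6 and aged 2 years, and were sorted as PU.1+, OLIG2- and NEUN-. Progranulin, the product of Grn, is secreted and also works in lysosomes. Each genotype had 2 H3K27ac libraries and 2 input libraries (sonicated chromatin without the antibody step), and nuclei of 2 mice were pooled for every replicate, so that a value is an average over 2 animals and over all PU.1+ nuclei, which can include other brain macrophages.

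Resting microglia hold a negative membrane potential mainly through a tonic potassium conductance. THIK-1, the product of Kcnk13, is a tandem pore domain potassium channel that carries much of this current and is needed for the branching and surveillance of microglial processes. TWIK2, the product of Kcnk6, belongs to the same family, and both have been tied to the potassium efflux that precedes NLRP3 inflammasome activation in myeloid cells. Kcnj2 encodes the inward rectifier Kir2.1, Kcna3 the voltage-gated channel Kv1.3 and Kcnn4 the calcium-activated channel KCa3.1, all of which have been recorded in cultured or activated microglia. Hvcn1 encodes the voltage-gated proton channel Hv1, which carries out the protons left behind by the NADPH oxidase. Trpv2 and Trpm2 encode cation channels of the TRP family, and Trpm2 opens in response to ADP-ribose and oxidative stress.

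The 250 bases before the start site of 4 members are shown because the start-site regions of these genes behaved differently: that of Kcnk13 was weakly acetylated, with a mean of 23.3 scaled tags (tags per 10000000 of a library, adjusted by TMM) over the 4 H3K27ac libraries, that of Trpm2 strongly, with 246, those of Trpv2 and Kcna3 lay between, with 99.1 and 65.2, and Kcna3 is rich in CpG there. The sequences are those of RefSeq (GRCm38.p6) and are written in the direction of transcription. The start sites implied by the table matched RefSeq for all 6 members found in the sequence table, and sequences of Kcnk6 and Hvcn1 are not shown. Capitals mark matches on either strand to the PU.1 motif GAGGAAGT, the AP-1 motif TGANTCA, or the E-boxes CACGTG (its own reverse complement) and CATGTG, none of which overlapped in these windows.
Kcnk13, chr12:99964249-99964498, plus strand: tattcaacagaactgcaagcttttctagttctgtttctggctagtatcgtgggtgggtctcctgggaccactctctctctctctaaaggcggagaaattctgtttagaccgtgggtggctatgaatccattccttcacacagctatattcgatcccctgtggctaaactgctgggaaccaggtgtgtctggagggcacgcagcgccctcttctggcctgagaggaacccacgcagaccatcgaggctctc
Trpm2, chr10:77969873-77970122, minus strand: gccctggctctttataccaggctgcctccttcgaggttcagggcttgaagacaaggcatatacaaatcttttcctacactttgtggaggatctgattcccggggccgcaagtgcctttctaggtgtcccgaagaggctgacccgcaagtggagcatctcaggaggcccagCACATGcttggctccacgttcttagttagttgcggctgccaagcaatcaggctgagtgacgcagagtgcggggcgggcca
Trpv2, chr11:62574236-62574485, plus strand: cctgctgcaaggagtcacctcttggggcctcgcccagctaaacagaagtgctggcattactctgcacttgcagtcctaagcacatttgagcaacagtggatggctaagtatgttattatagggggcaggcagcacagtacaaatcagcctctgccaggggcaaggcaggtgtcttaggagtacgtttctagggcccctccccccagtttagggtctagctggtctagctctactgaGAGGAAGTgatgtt
Kcna3, chr3:107035912-107036161, plus strand: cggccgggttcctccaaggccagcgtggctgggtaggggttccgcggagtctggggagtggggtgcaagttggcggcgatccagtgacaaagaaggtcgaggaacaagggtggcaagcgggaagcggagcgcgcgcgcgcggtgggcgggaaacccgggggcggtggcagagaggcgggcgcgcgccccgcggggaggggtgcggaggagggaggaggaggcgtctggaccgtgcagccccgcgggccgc
The GC content of these windows was 52.8% for Kcnk13, 56.8% for Trpm2, 53.2% for Trpv2 and 74.4% for Kcna3, against a median of 52.4% over 32851 RefSeq promoter windows of the same length. They held 8, 10, 2 and 31 CpG dinucleotides, in the same order, against a median of 6. The Trpv2 window held 1 PU.1 match that began 14 bases before the start site, and 2.44% of all windows held such a match. The Trpm2 window held 1 E-box of the CATGTG type, which 12.25% of all windows held. The Kcnk13 and Kcna3 windows held none of the 4 motifs, and among the members not printed here Kcnj2 and Kcnn4 each held 1 CACGTG, found in 6.02% of all windows. The AP-1 motif, found in 6.75% of all windows, was in none of the members' windows.

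The H3K27ac libraries held between 15491642.5 and 20030832 tags and the inputs between 4078179 and 14415969. The Grn gene itself, which checks the genotype labels, summed to 2239 and 1867 scaled tags in WT and 159 and 164 in GrnKO, and 4 of its 10 regions, with 138 to 357 scaled tags in the WT libraries, were listed at 0 in both GrnKO libraries. WT replicate 1 stood apart: 49.4% of its tags fell in the listed regions, against 63.3% in WT replicate 2 and 64.8% and 65.7% in GrnKO. Values below are scaled tags (tags per 10000000, as the authors deposited them) divided by a TMM factor that evens out this difference. Without TMM the median log2 change over tested regions moved from -0.002 to 0.22 and over tested genes from -0.01 to 0.18, so each change here is relative to the bulk of regions. Of the marker genes of microglia, 5 of 12 were lower in GrnKO and none was higher with TMM, while none was called with the authors' scaling (median log2 change -0.17 and 0.01). Their mean level per region was 208 to 221 scaled tags in WT and 176 to 178 in GrnKO. Fewer cells of a type and less acetylation per cell cannot be told apart in such bulk libraries. Per region, border macrophage or monocyte markers lay at 21.1 to 21.4 in WT and 22.5 to 26.5 in GrnKO, with 2 of 8 tested genes higher (Ms4a7 and F13a1). Their median log2 change was -0.03, and 0.16 with the authors' scaling. Lymphocyte markers lay at 15.1 to 17.4 and 32.7 to 42.7, with 1 of 3 higher (Ms4a1) and a median change of 0.78. Endothelial or mural markers lay at 22.5 to 22.8 and 32.4 to 34.4 (1 of 4 higher, median log2 change 0.46). Oligodendrocyte lineage markers lay at 32.3 to 32.4 and 40.5 to 42.8, with 1 of 4 higher (Mbp) and 1 lower (Mog). Their median change went the other way, -0.41, and -0.24 with the authors' scaling. Neutrophil markers lay at 0.313 to 1.05 and 4.20 to 4.75 (the 1 tested gene higher). Astrocyte markers lay at 68.3 to 69.4 and 63.2 to 64.2 (none of 3 called) and neuronal markers at 10.41 to 12.95 and 7.17 to 8.50 (1 of 3 lower, and none with the authors' scaling), and the part of these cells in the changes below was not tested.

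With TMM scaling, in GrnKO microglia the potassium channel gene Kcnk13 gained H3K27ac and its relative Kcnk6 lost it, while the other 6 channel genes did not pass the test on their summed values. Of the 100 member regions 86 passed the filter on low tags, and none of the 14 others averaged more than 4.73 scaled tags. Of the 86, 5 regions were higher in GrnKO (limma, Benjamini-Hochberg adjusted p under 0.05), all of them of Kcnk13, where 6.8% of all 80728 tested regions were higher. Another 4 were lower, 3 of Kcnk6 and 1 of Trpm2, where 2.92% of all tested regions were lower. The members' shares, 5.81% higher and 4.65% lower, were thus near the background, and their median log2 change was 0.01. Both GrnKO values lay above both WT values in 24 of the 86 regions and below them in 26, where 27% and 25.6% of all tested regions did so. Among the 8 summed genes 1 was higher and 1 was lower, where 9.55% and 4.88% of all 15380 tested genes were higher and lower. The calls rest on both GrnKO libraries: without GrnKO replicate 1 no member region was called, where 2% of all tested regions were higher and 0.398% lower, and without GrnKO replicate 2 none was higher and 1 was lower (2.6% and 0.858% of all). Without WT replicate 1 the counts were 10 higher and 3 lower of 89 tested member regions, where 9.85% and 5.16% of all were called. Without WT replicate 2 they were 7 and 9 of 87, where 10.8% and 4.65% of all were called. With the authors' scaling 6 regions, all of Kcnk13, were higher and none was lower, where 8.15% of all tested regions were higher and 0.412% lower. edgeR called 4 higher and 3 lower (6.08% and 2.5% of all), and DESeq2 5 and 4 (6.4% and 3.03%).

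**Figure D1:**
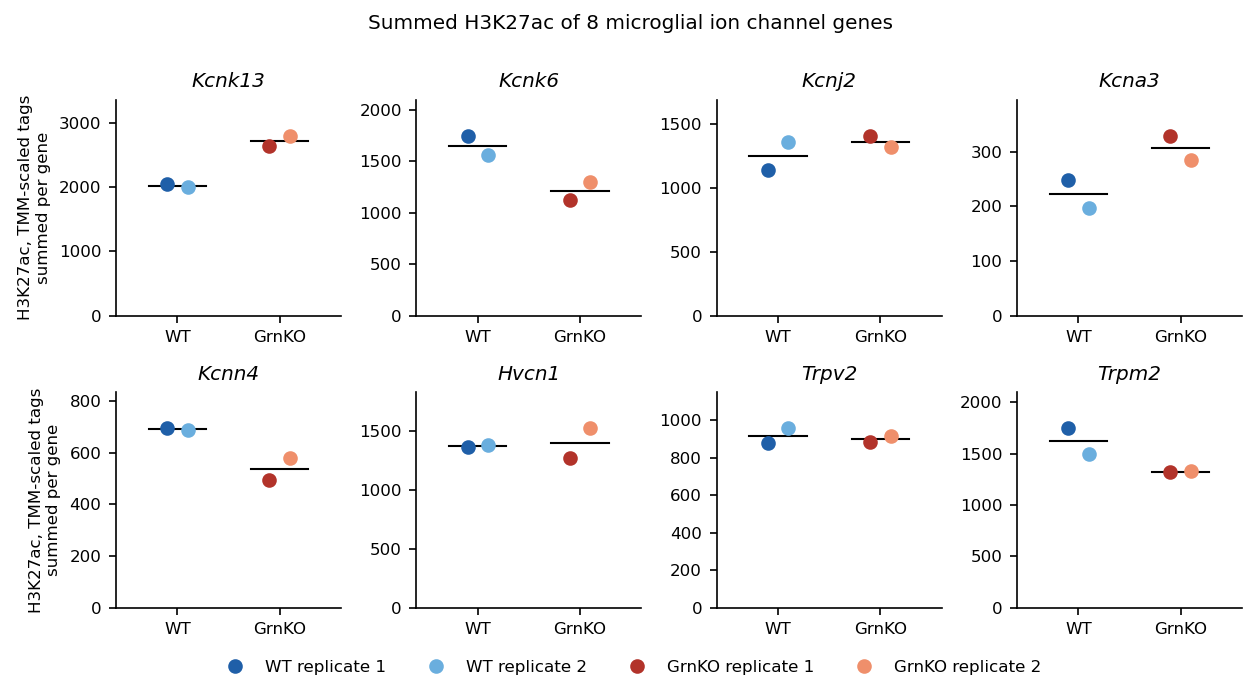
Summed H3K27ac of each channel gene in TMM-scaled tags (y axis, from 0) in the 2 WT and 2 GrnKO libraries (points), with a line at each mean. Both GrnKO points lie above both WT points for Kcnk13 and Kcna3 and below them for Kcnk6, Kcnn4 and Trpm2, and the genotypes overlap for Kcnj2, Hvcn1 and Trpv2.

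**Figure D2:**
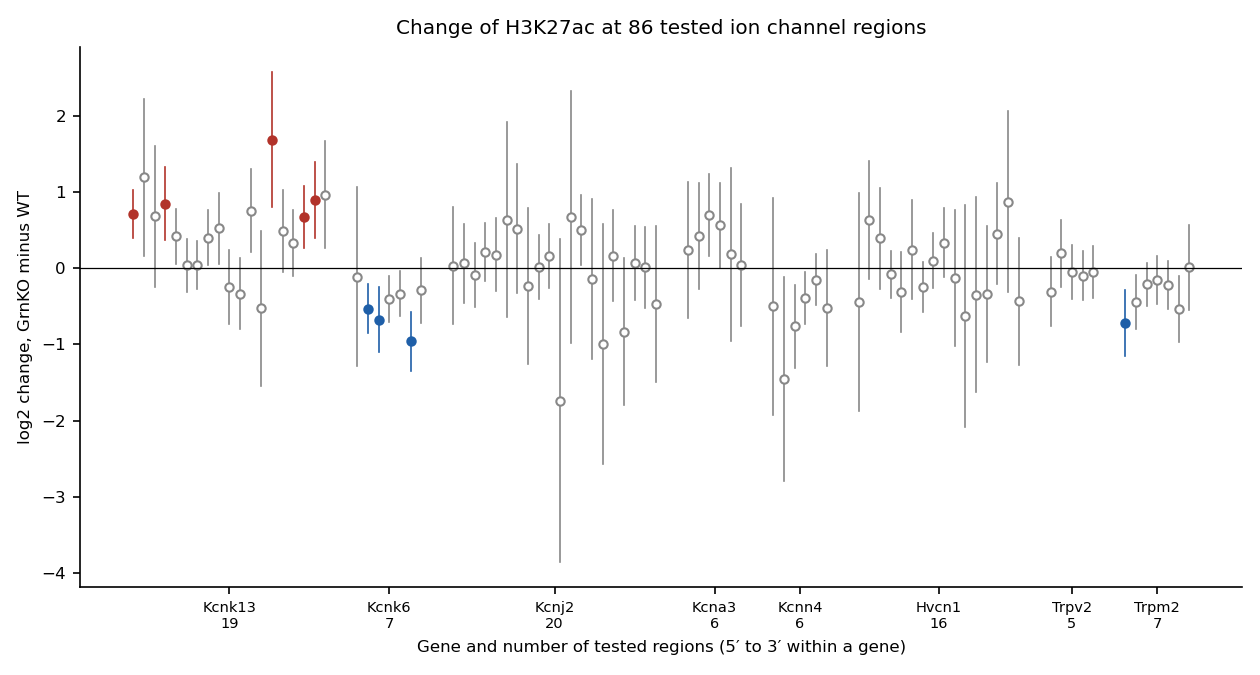
The log2 change in H3K27ac, GrnKO minus WT, with its 95% interval (bars) at each of the 86 tested regions, grouped by gene. Filled points passed the test: the 5 higher regions are all of Kcnk13, and the 4 lower ones are of Kcnk6 and Trpm2.

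Kcnk13 had 21 regions, spread from 21.8 kb before to 58.3 kb after its start site on chromosome 12. Its summed H3K27ac came to 2055 and 1998 scaled tags in the WT libraries (replicates 1 and 2, the order kept throughout) and to 2650 and 2802 in the GrnKO libraries. Both GrnKO libraries thus exceeded both WT libraries, the mean rose from 2026 ± 40.7 to 2726 ± 107 (SD, n = 2), and the log2 change was 0.43 ± 0.09 (SE, limma adjusted p = 0.00503, 95% interval 0.23 to 0.62). With the authors' scaling by library total the change was larger, 0.62, but no longer passed (adjusted p = 0.0986), and without GrnKO replicate 1 or replicate 2 it was 0.48 and 0.39 with an adjusted p of 0.0614 and 0.142. Of its 19 tested regions, 16 had a positive change, where 49.87% of all tested regions did. These are not separate observations, since 11 of the 19 overlap another Kcnk13 region and share tags with it, 9 of the 16 among them.

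The regions of Kcnk13 with the highest acetylation in WT, at 1.7 and 2.0 kb after the start site in its exon 2 and the intron that follows, did not pass the test. The stronger of them, which also had the highest mean over the 4 libraries, chr12:99966143-99966943, had 300 and 271 scaled tags in WT and 271 and 316 in GrnKO, so that the genotypes overlapped with TMM. Its log2 change was 0.04, with an interval of -0.28 to 0.35. The region at the annotated start site, whose sequence is printed above, was weak in every library, with 23.9 and 12.6 scaled tags in WT and 29.1 and 27.7 in GrnKO (log2 change 0.68 ± 0.44, adjusted p = 0.375). This change was 1.12 without WT replicate 1 and 0.26 without WT replicate 2, and neither passed (adjusted p = 0.0682 and 0.698). Only 4.42% of the WT acetylation of Kcnk13 lay within 1000 bp of this start site.

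The 5 Kcnk13 regions that rose did not adjoin each other. The first lies 21.8 kb upstream, at chr12:99942318-99943118 in intron 14 of the neighbouring gene Tdp1, which encodes a DNA repair phosphodiesterase, and had 198 and 229 scaled tags in WT and 341 and 356 in GrnKO. Its log2 change was 0.71 ± 0.15 (adjusted p = 0.00547), the smallest p among the member regions of this gene, and made it the highest Kcnk13 region in both GrnKO libraries. The other regions of Tdp1 summed to 230 and 221 scaled tags in WT and 353 and 302 in GrnKO, and Tdp1 passed the test too (log2 change 0.53 ± 0.17, adjusted p = 0.0440), whereas Psmc1, the next gene name on the other side, had a change of -0.02 (adjusted p = 0.961). These neighbours were named after their values were seen. Without the regions inside Tdp1, an alternative added after seeing the data, the Kcnk13 sum still rose by 0.39 (adjusted p = 0.0122).

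The remaining 4 regions that rose lie inside Kcnk13. At 0.65 kb, in the first intron (chr12:99964749-99965549), WT had 81.0 and 63.9 scaled tags and GrnKO 118 and 142 (log2 change 0.84 ± 0.23, adjusted p = 0.0250). At 29.2 kb, in intron 2 (chr12:99993294-99994094), WT had 25.4 and 9.69 and GrnKO 54.9 and 51.4. This was the only member region called with a change of at least 2-fold, 1.69 ± 0.42 on the log2 scale (adjusted p = 0.0164), and its WT replicates differed by more than 2-fold. At 42.3 kb in the same intron (chr12:100006431-100007231) WT had 105 and 140 and GrnKO 200 and 187 (0.67 ± 0.19, adjusted p = 0.0369). At 48.5 kb (chr12:100012635-100013435) WT had 62.2 and 100.0 and GrnKO 154 and 142 (0.90 ± 0.24, adjusted p = 0.0215). In all 5 regions both GrnKO values exceeded both WT values, and all 5 also passed with the authors' scaling, with log2 changes of 0.89 to 1.91. Some rested on 1 WT library: without WT replicate 1 the calls at 42.3 and 48.5 kb were lost (0.46, adjusted p = 0.0832, and 0.57, adjusted p = 0.0560), and without WT replicate 2 the change at 29.2 kb was 1.06 and still passed. The call at 42.3 kb was also lost with edgeR (adjusted p = 0.0501) and without the filter (0.0515).

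**Figure D3:**
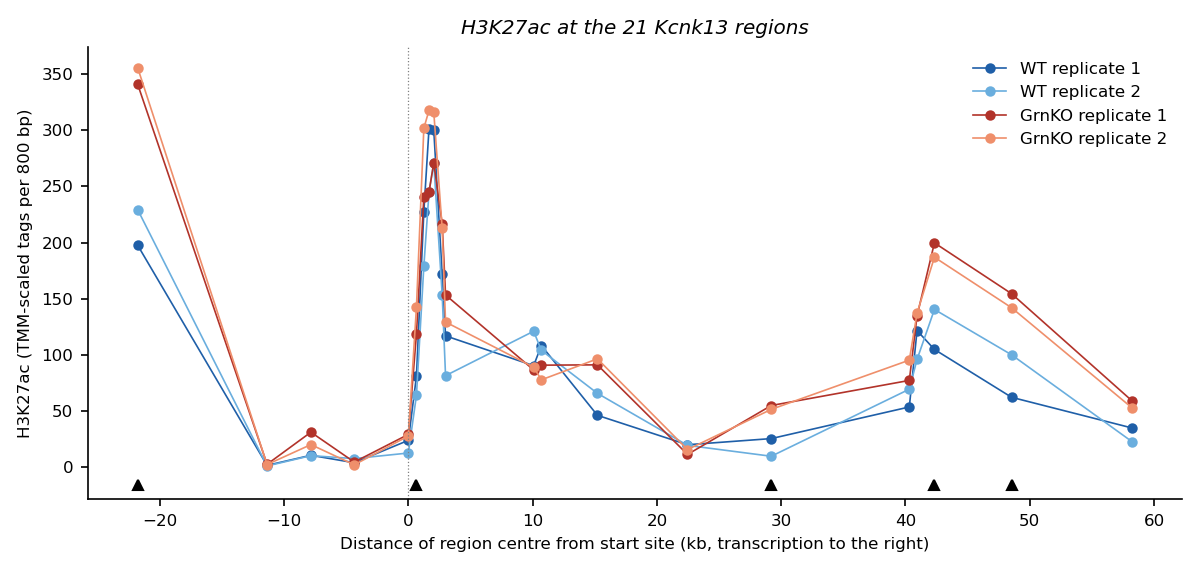
H3K27ac in TMM-scaled tags (y axis) at the 21 Kcnk13 regions against the distance of the region from the start site in kb (x axis), 1 line per library. Triangles mark the 5 regions that rose, where both GrnKO lines run above both WT lines, and at 2.0 kb the 4 lines cross, with 271 to 316 scaled tags.

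Within Kcnk13, 3 tested regions had a negative change, at 10.1, 10.7 and 22.5 kb after the start site in intron 2. None passed the test: the changes were -0.25, -0.33 and -0.53. Their adjusted p were 0.562, 0.393 and 0.563, and all 3 intervals included 0. Both GrnKO libraries lay below both WT libraries at these regions with TMM, but the genotypes overlapped at all 3 with the authors' scaling, where the changes were -0.03, -0.11 and -0.31. The outermost region, 58.3 kb after the start site, had 34.8 and 22.5 scaled tags in WT and 58.8 and 52.6 in GrnKO, which missed the threshold with TMM (log2 change 0.96 ± 0.33, adjusted p = 0.0790) and passed it with the authors' scaling (1.19, adjusted p = 0.0348).

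Kcnk6, the relative of Kcnk13 on chromosome 7, changed in the opposite direction. Its 7 regions, all tested, summed to 1750 and 1560 scaled tags in WT and 1127 and 1298 in GrnKO. The mean fell from 1655 ± 134 to 1212 ± 121 (SD, n = 2), a log2 change of -0.45 ± 0.11 (adjusted p = 0.0130, interval -0.69 to -0.21), with both GrnKO libraries below both WT libraries. This call depends on the scaling: with the authors' library totals the change was -0.26 (adjusted p = 0.603). It was also lost without GrnKO replicate 1 (-0.34, adjusted p = 0.341) and with input subtracted (-0.43, adjusted p = 0.0577).

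The 3 Kcnk6 regions that fell include its start site. There (chr7:29232117-29232917) WT had 317 and 294 scaled tags and GrnKO 201 and 221, a log2 change of -0.53 ± 0.15 (adjusted p = 0.0334). In intron 1, 0.92 kb downstream (chr7:29231205-29232005), WT had 180 and 159 and GrnKO 92.8 and 120 (-0.68 ± 0.20, adjusted p = 0.0415). In intron 2, 7.2 kb downstream (chr7:29224877-29225677), WT had 247 and 204 and GrnKO 110 and 121, the largest loss among the called member regions (-0.96 ± 0.19, adjusted p = 0.00269). Both GrnKO values lay below both WT values at each of these. Without WT replicate 1 the region at 0.92 kb no longer passed (-0.58, adjusted p = 0.0563), nor did it with edgeR (adjusted p = 0.0525), and without the filter neither it nor the start-site region did (adjusted p = 0.0891 and 0.107). With the authors' scaling the same 3 regions had changes of -0.31, -0.45 and -0.73, and none passed (adjusted p = 0.569, 0.378 and 0.0883).

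The strongest Kcnk6 region, in intron 1 at 4.1 kb (chr7:29228010-29228810), had 448 and 387 scaled tags in WT and 300 and 362 in GrnKO. Its change of -0.33 did not pass (adjusted p = 0.155). The genotypes did not overlap with TMM but did with the authors' scaling, where the change was -0.11 (adjusted p = 0.878). The region was called without WT replicate 2 (-0.42, adjusted p = 0.0360), and its change was -0.22 without WT replicate 1 and -0.18 without GrnKO replicate 1. All 7 Kcnk6 regions had a negative change with TMM scaling, and the weakest of them, upstream of the gene, turned positive with the authors' scaling (from -0.11 to 0.09). The next gene names on either side, Catsperg1 and Yif1b, likewise looked up after the values were known, did not pass the test (log2 changes 0.15 and -0.29, adjusted p = 0.812 and 0.379).

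**Figure D4:**
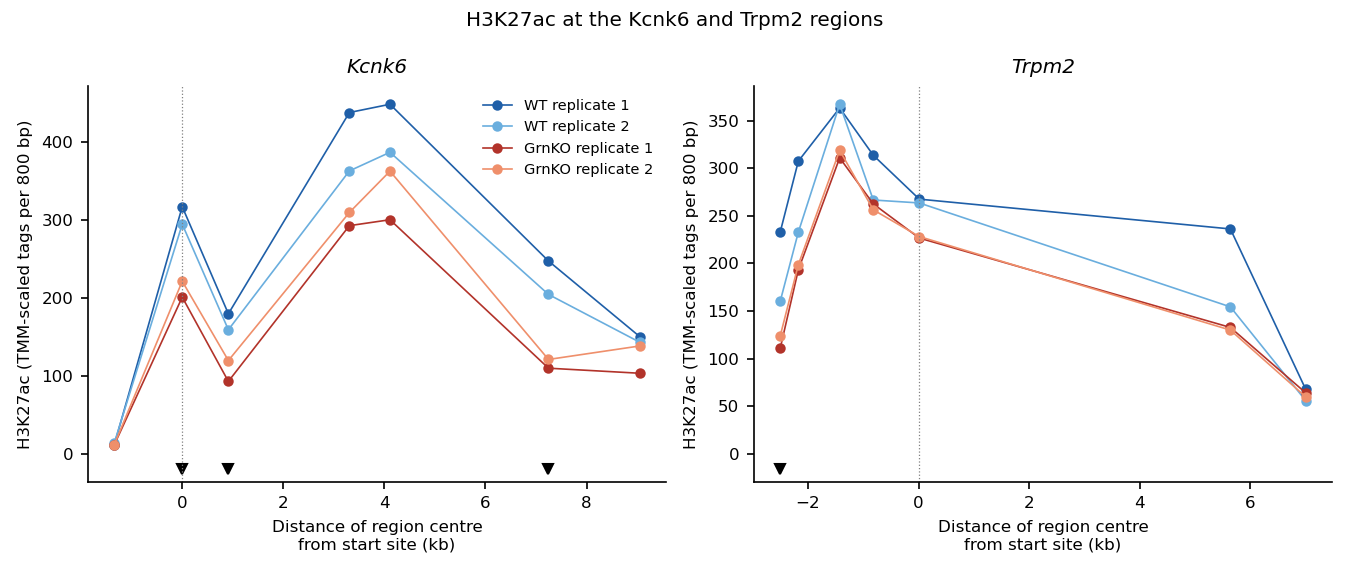
H3K27ac in TMM-scaled tags (y axis) at the 7 Kcnk6 and the 7 Trpm2 regions against distance from the start site in kb (x axis), 1 line per library. Inverted triangles mark the regions that fell: at the 3 in Kcnk6 and the 1 in Trpm2 both GrnKO lines run below both WT lines, and WT replicate 1 is the highest line at all 4 of these.

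Kcnj2, the inward rectifier gene on chromosome 11, had the most regions of the 8 genes, 25 over 488 kb, most of them downstream of the gene. Its sums were 1144 and 1361 scaled tags in WT and 1408 and 1317 in GrnKO. The genotypes overlapped, and the log2 change of 0.13 did not pass (adjusted p = 0.546, interval -0.12 to 0.37). It was 0.0040 without WT replicate 1 and 0.27 without WT replicate 2, and neither passed (adjusted p = 0.987 and 0.0622). Of its 20 tested regions 13 had a positive and 7 a negative change. Its start-site region had 127 and 172 scaled tags in WT and 135 and 143 in GrnKO, with a change of -0.09 that became 0.14 with the authors' scaling. Its strongest region, 0.47 kb downstream in the intron (chr11:111066230-111067030), had 146 and 170 in WT and 179 and 186 in GrnKO (0.21, adjusted p = 0.519, and 0.11 and 0.35 without WT replicate 1 or 2). The region with the smallest p lay 98.9 kb downstream (chr11:111164706-111165506), with 87.2 and 132 scaled tags in WT and 156 and 147 in GrnKO (0.50 ± 0.22, adjusted p = 0.171). This region was called without WT replicate 2 (0.81, adjusted p = 0.00582) and had a change of 0.21 without WT replicate 1 (adjusted p = 0.571).

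Kcna3, the Kv1.3 gene on chromosome 3, was the least acetylated member. Its 9 regions summed to 249 and 196 scaled tags in WT and 329 and 286 in GrnKO. Both GrnKO values exceeded both WT values, yet the log2 change of 0.47 ± 0.18, larger than that of Kcnk13, missed the threshold (adjusted p = 0.0987, interval 0.09 to 0.85). It was called without WT replicate 1 (0.64, adjusted p = 0.00517), but not without WT replicate 2 (0.32, adjusted p = 0.213) or without either GrnKO replicate (0.38 and 0.58, adjusted p = 0.617 and 0.218). Its regions beyond 1000 bp of the start site gave 0.22 (adjusted p = 0.591). All 6 tested regions had a positive change and lay within 4.4 kb of the start site, and 5 of them overlap another Kcna3 region. The strongest, 0.51 kb before it (chr3:107035255-107036055), had 71.2 and 49.8 scaled tags in WT and 105 and 90.0 in GrnKO (0.70 ± 0.26, adjusted p = 0.0984). It was called without WT replicate 1 (0.96, adjusted p = 0.00454) but not without WT replicate 2 (0.47, adjusted p = 0.201). The start-site region that overlaps it, whose CpG-rich sequence is printed above, had 55.9 and 48.7 in WT and 85.7 and 70.4 in GrnKO (0.56 ± 0.27, adjusted p = 0.202).

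Kcnn4, the calcium-activated channel gene on chromosome 7, summed to 694 and 688 scaled tags in WT and 495 and 577 in GrnKO. Both GrnKO values lay below both WT values, but the log2 change of -0.37 ± 0.13 did not pass (adjusted p = 0.0769, interval -0.65 to -0.09). It passed when only regions that do not overlap each other were summed (-0.50, adjusted p = 0.0228) and was -0.18 with the authors' scaling, with which the genotypes overlapped. All 6 tested regions of its 8, 2 of which overlap, had a negative change, and the one 3.9 kb downstream turned positive with the authors' scaling (from -0.15 to 0.07). Its start-site region was nearly bare, with 1.95 and 11.8 scaled tags in WT and 3.11 and 2.08 in GrnKO, and was not tested. The acetylation lay in intron 1 instead, with a maximum 3.5 kb downstream (chr7:24373321-24374121) of 292 and 298 scaled tags in WT and 195 and 259 in GrnKO (-0.39, adjusted p = 0.147). There the change was -0.17 without GrnKO replicate 1 and also -0.17 with the authors' scaling, with which the genotypes overlapped. The region with the smallest p, 2.2 kb downstream (chr7:24372083-24372883), had 77.8 and 101 in WT and 50.1 and 53.3 in GrnKO (-0.77 ± 0.26, adjusted p = 0.0728). It was called without WT replicate 1 (-0.94, adjusted p = 0.0115) and with the replicate number as a block (adjusted p = 0.0393), and was -0.54 with the authors' scaling (adjusted p = 0.353).

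Hvcn1, the proton channel gene on chromosome 5, did not pass the test. Its 17 regions summed to 1359 and 1380 scaled tags in WT and 1272 and 1523 in GrnKO, with a log2 change of 0.02 and an interval of -0.22 to 0.26. The GrnKO replicates thus lay on either side of the WT pair. Its strongest region was that of the start site (chr5:122209431-122210231), with 325 and 307 in WT and 272 and 329 in GrnKO (-0.08, adjusted p = 0.806, and 0.15 with the authors' scaling). The region with the smallest p, 2.2 kb upstream (chr5:122207153-122207953), had 41.1 and 20.7 in WT and 42.7 and 49.1 in GrnKO (0.63, adjusted p = 0.315). It was called without WT replicate 1 (1.12, adjusted p = 0.0201), while without WT replicate 2 the change was 0.18 (adjusted p = 0.754). Of the 16 tested regions 7 had a positive and 9 a negative change.

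Trpv2, a cation channel gene of macrophages on chromosome 11, had, with Hvcn1, the smallest change of the 8 sums. Its 6 regions summed to 876 and 957 scaled tags in WT and 881 and 915 in GrnKO, a log2 change of -0.03 that was not called (adjusted p = 0.916, interval -0.28 to 0.22) and was 0.16 with the authors' scaling. The start-site region, which holds the PU.1 match printed above, had 115 and 105 scaled tags in WT and 90.8 and 86.1 in GrnKO (chr11:62574089-62574889, -0.31, adjusted p = 0.427). Its strongest region, 2.2 kb downstream in intron 2 (chr11:62576288-62577088), had 254 and 254 in WT and 226 and 249 in GrnKO (-0.10, adjusted p = 0.756). Its mean over the 4 libraries, 245.9, was all but tied with the 245.7 of the region 1.5 kb downstream. At the start-site region and the one at 2.2 kb the GrnKO values lay below the WT values with TMM. They overlapped them with the authors' scaling (changes of -0.08 and 0.13), and neither difference passed.

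Trpm2, the ADP-ribose-gated channel gene on chromosome 10, summed to 1748 and 1497 scaled tags in WT and 1319 and 1330 in GrnKO. Both GrnKO values were below both WT values, and the log2 change of -0.29 ± 0.11 did not pass (adjusted p = 0.0949, interval -0.52 to -0.06). It passed without WT replicate 2 (-0.38, adjusted p = 0.00495) and was -0.17 without WT replicate 1 and -0.10 with the authors' scaling. The region that fell lies 2.5 kb upstream of the start site (chr10:77971975-77972775) and had 233 and 160 scaled tags in WT and 111 and 124 in GrnKO (-0.72 ± 0.20, adjusted p = 0.0330). With the authors' scaling its change was -0.49 (adjusted p = 0.311), without WT replicate 1 it was -0.44 (adjusted p = 0.167) and without the filter -0.68 (adjusted p = 0.0711), none of which passed. The gap between the 2 WT replicates there exceeded the gap between the lower WT and the higher GrnKO value. The start-site region, whose sequence is printed above, had 268 and 264 in WT and 227 and 228 in GrnKO (-0.22, adjusted p = 0.403, and 0.00 with the authors' scaling). The strongest Trpm2 region, 1.4 kb upstream (chr10:77970900-77971700), had 363 and 367 in WT and 311 and 319 in GrnKO (-0.21, adjusted p = 0.361, and 0.01 with the authors' scaling). Lrrc3, a neighbour named after its value was seen, also fell (-0.47, adjusted p = 0.0379), but not with the authors' scaling (-0.28, adjusted p = 0.547).

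The WT sum was highest for Kcnk13 (2026), and that of Kcnj2 (1252) exceeded those of Trpv2 (917) and Kcnn4 (691). A sum grows with the number of regions, while a mean per region falls with weak distant ones, and overlapping regions share tags. Because every region is 800 bp wide, mean scaled tags per region compare the level of acetylation at an average region of each gene. In WT this level was 240 ± 22.9 (SD, n = 2) for Kcnk6, 235 ± 29.1 for Trpm2, 155 ± 7.46 for Trpv2, 97.8 ± 3.39 for Kcnk13, 87.5 ± 1.83 for Kcnn4, 81.6 ± 0.306 for Hvcn1, 50.7 ± 5.48 for Kcnj2 and 25.1 ± 4.56 for Kcna3. Kcnk6 and Trpm2 did not differ beyond their spread, and each later neighbour in this order was separated from the next in both WT libraries. In GrnKO the level was 187 ± 1.51 for Trpm2, 171 ± 17.4 for Kcnk6, 148 ± 4.27 for Trpv2, 128 ± 5.35 for Kcnk13, 81.2 ± 10.5 for Hvcn1, 66.2 ± 7.32 for Kcnn4, 53.8 ± 2.41 for Kcnj2 and 33.7 ± 3.31 for Kcna3. Trpm2 exceeded Kcnk6 by less than the SD of Kcnk6, and Hvcn1 preceded Kcnn4. The genes also differed in where the mark lies: regions within 1000 bp of the start site held 55.3% of the WT acetylation of Kcna3, 38.0% of that of Kcnj2, 33.8% for Trpm2, 28.3% for Kcnk6, 23.01% for Trpv2 and 22.8% for Hvcn1, but 4.42% for Kcnk13 and 0.981% for Kcnn4. Input libraries gave 0.841% to 4.26% of the H3K27ac level in 6 of the genes and 8.24% and 10.0% for Kcna3 and Kcnj2, the 2 lowest by mean per region.

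**Figure D5:**
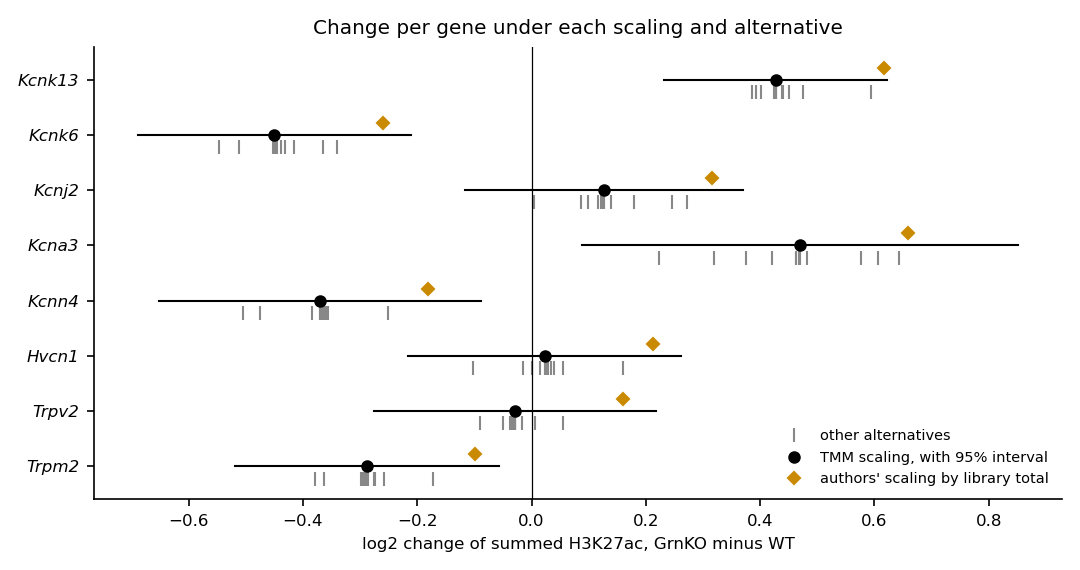
The log2 change in summed H3K27ac of each gene, GrnKO minus WT (x axis), with TMM scaling and its 95% interval (circle and bar), with the authors' library totals (diamond) and under the other alternatives (ticks). The authors' scaling shifts all genes to the right, Kcnk13 from 0.43 to 0.62 and Kcnk6 from -0.45 to -0.26, and Trpv2 changes sign from -0.03 to 0.16.

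Other channel genes give the setting for these values, and their counts stand beside the 9.55% of all tested genes that were higher and the 4.88% that were lower, or 10.6% and 1.08% with the authors' scaling. Of the 74 further potassium channel genes in the table (names starting with Kcn), 44 were tested, none was higher and 5 were lower, with a median log2 change of -0.01 beside -0.01 over all tested genes (with the authors' scaling 2 were higher and 2 lower, with a median of 0.18 beside 0.18). The 5 were Kcnip3 (-0.60), Kcnip2 (-0.90) and Kcnq3 (-1.35), Kcnma1 (-0.49) and Kcnk12 (-0.74), with adjusted p between 0.000883 and 0.0151. With the authors' scaling Kcnip2 and Kcnq3 passed and Kcnip3, Kcnma1 and Kcnk12 did not (adjusted p = 0.346, 0.524 and 0.158). Kcnip2 and Kcnip3 encode calcium-binding partners of Kv4 channels, Kcnma1 the large-conductance calcium-activated channel and Kcnk12 the closest relative of Kcnk13, THIK-2. Kcnk12 had 268 and 318 scaled tags in WT and 154 and 198 in GrnKO, so that with TMM it fell while Kcnk13 rose, and with the authors' scaling neither passed (Kcnk12 -0.55, adjusted p = 0.158). Of 23 further TRP channel genes, 14 were tested, 3 rose and 1 fell, with a median of 0.39 (4 and none with the authors' scaling). The 3 that rose encode the lysosomal cation channels Mcoln1 (1.11), Mcoln2 (1.99) and Mcoln3 (3.46), and the 1 that fell was Trpm1 (-0.32, adjusted p = 0.0408, and 0.834 with the authors' scaling). Of 48 other channel genes written down for macrophages and microglia, 43 were tested, 9 rose and 1 fell, with a median of 0.15 (7 and none with the authors' scaling). The 5 with the smallest p among those that rose were Ttyh2 (2.53), Clcn7, the lysosomal chloride-proton exchanger (1.86), Cacna1a (1.08), Cacna1d (0.60) and Lrrc8c, a subunit of volume-regulated anion channels (1.35), and P2rx7, the ATP-gated channel, fell (-0.33, adjusted p = 0.0455, and 0.805 with the authors' scaling).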

How the data were processed

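H3K27ac was measured in 4 libraries, 2 per genotype, with 4 matching inputs. The deposited values are a signal per region of 800 bp: per the file headers, the authors scaled the tags of each library to a total of 10000000 over regions that are merged, reproducible ATAC-seq peaks, and all 8 value columns were used. The submitters' processing notes name mm10, Bowtie2, HOMER and DESeq2 without a version or role, and the aligner settings are not given in the sources used here. Multiplying by the library totals gave whole read ends for 100% of values (2 ends per tag, tolerance 0.1). The filter and the TMM factors were computed from these. edgeR and DESeq2 were fitted to them, while limma was fitted to the scaled values. Here values were divided by TMM factors (regions 0.825, 1.04, 1.08 and 1.08 for WT replicates 1 and 2 and GrnKO replicates 1 and 2), computed separately for regions and for sums per gene. Features with a minimum of about 10 tags (filterByExpr) were kept, and limma with a trend was fitted to log2(value + 1) over all 80728 regions or 15380 genes with Benjamini-Hochberg adjustment at 0.05 (R 4.3.3, limma 3.58.1, edgeR 4.0.16, DESeq2 1.42.0, with Python 3.11.15). Fold changes are on that log scale, which understates low values. The tests were run on simulated tags, with an outcome that is not reported here. No simulated library had a lower share of tags in regions, so that check cannot address the choice of scaling. Replicates are separate pools of mice, and their counts differed by more than sampling noise. Reads carry no molecular identifiers. Same-numbered replicates are different mice. The members and gene lists were chosen with earlier results of these data known, so their counts are descriptions. For each gene the text names its sum, every region past the threshold, the strongest region, the one nearest the start site and the one with the smallest p. Of other channel genes past the threshold it names up to 5 per list and direction, ranked by p. Coordinates are those of the table.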

Additional observations from a re-analysis of the deposited data

Results flagged for a closer look

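At 2 tested member regions an input library, which served only as background, exceeded all 4 H3K27ac libraries on the authors' scale. The Kcnj2 region 260.9 kb after the start site (chr11:111326713-111327513) had 116.5 scaled tags, or 47.5 tags, in the input of WT replicate 1, against 12.5 to 24.4 in the H3K27ac libraries and 0 to 13.9 in the other inputs. The Hvcn1 region at chr5:122224446-122225246, in intron 3, had 31.63 scaled tags, or 15.5 tags, in the input of GrnKO replicate 2, against 19.7 to 25.1 in the H3K27ac libraries and 0 to 8.32 in the other inputs. Neither region passed the test, and both inputs are among the shallower libraries.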

How the results depend on the processing

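With the authors' library totals in place of TMM, 0 member regions and 0 member genes were lower and 0 member genes were higher. Without a filter 1 region was lower, and at a change of at least 2-fold 1 region was higher, 0 were lower and 0 genes were called in either direction. Summing only non-overlapping regions gave 2 lower genes, and subtracting input 0. Leaving out 1 library gave 0 to 10 higher and 0 to 9 lower regions, and 0 to 2 higher and 0 to 2 lower genes, where a lone library is assumed to vary like the other genotype. The replicate numbers do not pair the samples (correlation of deviations 0.0344 over regions and 0.0367 over genes). With the replicate block 7 regions were higher and 8 lower, among them all 9 called without it, and 2 genes were higher and 3 lower, Kcna3, Kcnn4 and Trpm2 being added. Of these settings, shares over all features are given above only for the authors' totals and, for regions, without 1 library. Counts at the other settings have no background beside them and are not results about the channels. Among the genes and named regions, the changes that turned sign lay between -0.22 and 0.04 with TMM. With the authors' totals they became 0.16 for Trpv2, 0.14 for the Kcnj2 start-site region, 0.15 for that of Hvcn1, 0.0028 for that of Trpm2, 0.13 for the strongest Trpv2 region and 0.012 for the strongest Trpm2 region. Non-overlapping regions gave -0.0152 for Hvcn1. Without 1 library the sum changes spanned -0.10 to 0.16 for Hvcn1 and -0.0897 to 0.0559 for Trpv2. The strongest Kcnk13 region spanned -0.0604 to 0.166, and the start-site regions of Kcnj2 and Hvcn1 -0.30 to 0.15 and -0.2021 to 0.0754. None of the 9 called regions or 2 called genes reversed. Of 407 values recomputed, 320 kept their direction and call or stayed within 1.5 times the count. Apart from the alternatives' own construction, the cause was not tested. With 2 libraries per genotype, changes of the size seen at Kcna3, Kcnn4 and Trpm2 lay near the threshold, and a region with under about 10 tags was not tested.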

Other observations

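The 16 gene names next to the members in the table were looked at after the values were known. Of these, 15 were tested, and with TMM scaling 2 were higher, Tdp1 and Ubb, 2 were lower, 2610035D17Rik and Lrrc3, and 11 were not called, with log2 changes of -0.42 to 0.82 and limma adjusted p of 0.0638 to 0.961. With the authors' scaling 3 were higher, Tdp1, Ubb and AI504432, and 1 was lower, 2610035D17Rik. The next gene name past the last Kcnj2 region, which lies 471.7 kb after the Kcnj2 start site, was the non-coding gene 2610035D17Rik. It had 394 and 298 scaled tags in WT and 146 and 177 in GrnKO (log2 change -1.09, limma adjusted p = 0.00121). Kcnj2 itself did not pass, and Kcnj16, the potassium channel gene on its other side, had a change of 0.13 (adjusted p = 0.680). Next to Trpv2, which did not pass, the ubiquitin gene Ubb had 1007 and 1273 scaled tags in WT and 1732 and 1746 in GrnKO (0.62, adjusted p = 0.00228), while Snord49b on the other side had a change of -0.03 (adjusted p = 0.942). Next to Kcna3, AI504432 had 52.4 and 48.9 in WT and 96.7 and 83.5 in GrnKO (0.82, adjusted p = 0.0638, and 0.0262 with the authors' scaling).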
